A study of Mus musculus with 7 samples.

Results

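Usp37, Vil1, Ctdsp1, Slc11a1, Tmbim1, Pnkd, Aamp, Arpc2 and Tns1 are 9 genes of the gene-dense stretch of mouse chromosome 1 that lies upstream of the farthest-reaching of 4 engineered inversions at the Epha4 locus. They were chosen by name, as the far upstream genes among the 103 genes of the deposited contact tables, to describe how far beyond the Inv4 breakpoint raised contact with the enhancer region extended. Capture Hi-C, which counts ligations between loci of a probe-enriched region, was run on pooled limb buds of 10 embryos per condition at stage E11.5. The conditions were wild type (WT), the CRISPR/Cas9 inversions Inv1, Inv2, Inv3 and Inv4, and Inv1 with a deletion that its title names after CTCF (Inv1DelCTCF); Inv1 embryonic stem cells (Inv1 ESC) formed the 7th condition. Each condition was 1 library, so no difference below has a replicate check and no test was possible. Gene tables cover WT and Inv1 to Inv4, and contact maps cover all 7 libraries. The cell type field reads G4 ESC, an embryonic stem cell line, for limb bud libraries too, and contact data hold no expression markers against which the tissue could be checked. The labels state neither the extent of the deletion nor whether the mutant embryos also carried a WT chromosome, nor how many stem cell clones gave rise to each line.

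An enhancer acts on a promoter that it meets in the folded chromosome, and such meetings occur mostly within domains whose borders hold CTCF. An inversion that moves part of a domain past its border brings the enhancers in it next to promoters that they do not normally meet. In the limb bud, Epha4 encodes an ephrin receptor tyrosine kinase, and its enhancers lie in a large domain of its own. The 9 upstream genes have unrelated roles. Usp37 encodes a deubiquitinating protease, Ctdsp1 a small phosphatase that acts on RNA polymerase II, Slc11a1 a divalent metal transporter of phagocytes and Tmbim1 a membrane protein of the BAX inhibitor family. Vil1 (villin), Arpc2 (a subunit of the Arp2/3 complex) and Tns1 (tensin, at focal adhesions) act on or bind the actin skeleton. Pnkd is named after a movement disorder, and Aamp after the migration of vascular cells.

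Of each table's 103 rows, Tns1 was row 24 and Usp37 row 39, and row numbers increase toward Epha4. Usp37 is therefore the nearest of the 9 to the inversions and Tns1 the farthest. The 16 rows from Tns1 to Usp37 include 7 other genes. Pnkd and Aamp had the same value in all 5 tables, so the 9 genes gave 8 distinct profiles. Usp37 was tied in the same way with its neighbour Rqcd1, and Tns1 with Rufy4.

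The sequences upstream of 4 of the start sites are shown because these genes mark the ends of the group (Usp37 and Tns1) and the 2 gaps within it in Inv4 (Slc11a1 and Arpc2). They are the 250 bases before the RefSeq start site, 5′ to 3′ on the strand of the gene, in build GRCm38.p6: chr1:74505822-74506071 (minus strand), chr1:74374953-74375202 (plus strand), chr1:74236267-74236516 (plus strand) and chr1:74124549-74124798 (minus strand). The contact maps are in mm9, and these coordinates were not joined to them. Capitals mark GATC, the site of DpnII, the enzyme that cut the chromatin.
Usp37: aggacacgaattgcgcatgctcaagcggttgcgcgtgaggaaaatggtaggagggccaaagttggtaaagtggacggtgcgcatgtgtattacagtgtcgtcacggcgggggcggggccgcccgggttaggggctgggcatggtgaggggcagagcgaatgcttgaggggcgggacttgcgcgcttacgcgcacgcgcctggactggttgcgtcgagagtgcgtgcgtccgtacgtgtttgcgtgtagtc
Slc11a1: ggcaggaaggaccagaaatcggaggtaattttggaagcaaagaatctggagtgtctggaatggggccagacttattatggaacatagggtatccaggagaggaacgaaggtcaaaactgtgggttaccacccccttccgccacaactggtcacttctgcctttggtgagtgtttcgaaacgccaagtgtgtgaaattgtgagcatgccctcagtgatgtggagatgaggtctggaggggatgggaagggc
Arpc2: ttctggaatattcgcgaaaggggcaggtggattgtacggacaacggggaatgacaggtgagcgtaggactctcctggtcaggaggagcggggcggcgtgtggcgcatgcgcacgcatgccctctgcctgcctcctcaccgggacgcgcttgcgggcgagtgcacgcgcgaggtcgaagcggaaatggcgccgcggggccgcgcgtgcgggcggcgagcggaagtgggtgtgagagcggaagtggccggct
Tns1: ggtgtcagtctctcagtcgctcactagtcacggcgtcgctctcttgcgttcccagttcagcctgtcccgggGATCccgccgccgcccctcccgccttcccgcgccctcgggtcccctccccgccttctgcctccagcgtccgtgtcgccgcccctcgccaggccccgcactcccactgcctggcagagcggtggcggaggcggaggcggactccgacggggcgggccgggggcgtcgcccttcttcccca
All 9 genes had an entry of this length, 5 on the plus and 4 on the minus strand. That of Pnkd (from 74332360) lay between those of Slc11a1 (from 74374953) and Tmbim1 (from 74304337). In the gene tables Pnkd, at row 32, instead stands beyond Tmbim1, at row 33. Which start site the gene tables used for Pnkd is not given. The letters GATC, which read the same on both strands, occurred in 2 of the 9, Ctdsp1 and Tns1, against 41.9% of 32851 mouse promoters; the site before Tns1 lay 179 bases from the start. GC content was 62.8% for Usp37, 68.4% for Arpc2 and 74.4% for Tns1, and 51.2% for Slc11a1, against a median of 52.4% over all promoters. The runs of Usp37, Arpc2 and Tns1 held 28, 33 and 30 CG dinucleotides and that of Slc11a1 held 5, with a median of 6 over all promoters. The 2 gaps in Inv4 thus fell on a start site that was poor in CG and on one that was rich in it.

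In WT, none of the 9 genes stood out. Their scaled contact ran from 0 to 0.671 in the authors' units, with a median of 0.279, while Epha4, the highest gene of the WT table, was at 7.68. Tmbim1 and Tns1 were listed at 0. The 23 genes beyond Tns1, away from Epha4, had a median of 0.188 and reached 0.574, so only 2 of the 9 genes, Usp37 and Ctdsp1, lay above all of them.

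Usp37 was at 11.9 in Inv4 and 3.49 in Inv3, at -0.176 in Inv2 and 1.83 in Inv1, and at 0.630 in WT. It was the highest of the 9 in Inv1, Inv3 and Inv4 and the lowest in Inv2. Vil1 was at 5.63 in Inv4 and 1.40 in Inv3, at 1.24 in Inv2 and 1.01 in Inv1, and at 0.159 in WT, above WT in every inversion. Ctdsp1 was at 4.37 in Inv4 and 3.45 in Inv3, at 0.0243 in Inv2 and 0.644 in Inv1, and at 0.671 in WT. Ctdsp1 was thus above WT in Inv3 and Inv4, at a difference of -0.0278 units in Inv1, and near 0 in Inv2.

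Slc11a1 was at 0.706 in Inv4 and 1.87 in Inv3, at 0.0269 in Inv2 and 0.801 in Inv1, and at 0.423 in WT. It was the 1 gene of the 9 that was higher in Inv1 than in Inv4. Tmbim1 was at 3.78 in Inv4 and 2.89 in Inv3, at 1.10 in Inv2 and 0.806 in Inv1, and at 0 in WT, and no ratio to a WT value of 0 is meaningful for it. Pnkd and Aamp, with 1 shared profile, were at 4.61 in Inv4 and 1.17 in Inv3, at 0.103 in Inv2 and 0.216 in Inv1, and at 0.279 in WT. Raised contact of this pair was therefore seen in Inv3 and Inv4 and in neither Inv1 nor Inv2.

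Arpc2 was at 1.28 in Inv4 and 1.44 in Inv3, at 0.697 in Inv2 and 0.434 in Inv1, and at 0.416 in WT, the narrowest range among the 9. Tns1 was at 4.36 in Inv4 and 1.34 in Inv3, at 0 in Inv2 and 0.401 in Inv1, and at 0 in WT. The farthest gene of the group thus stood at the level of Ctdsp1 in Inv4. Slc11a1 and Arpc2 were higher in Inv3 than in Inv4, and the other 7 genes were higher in Inv4.

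**Figure D1:**
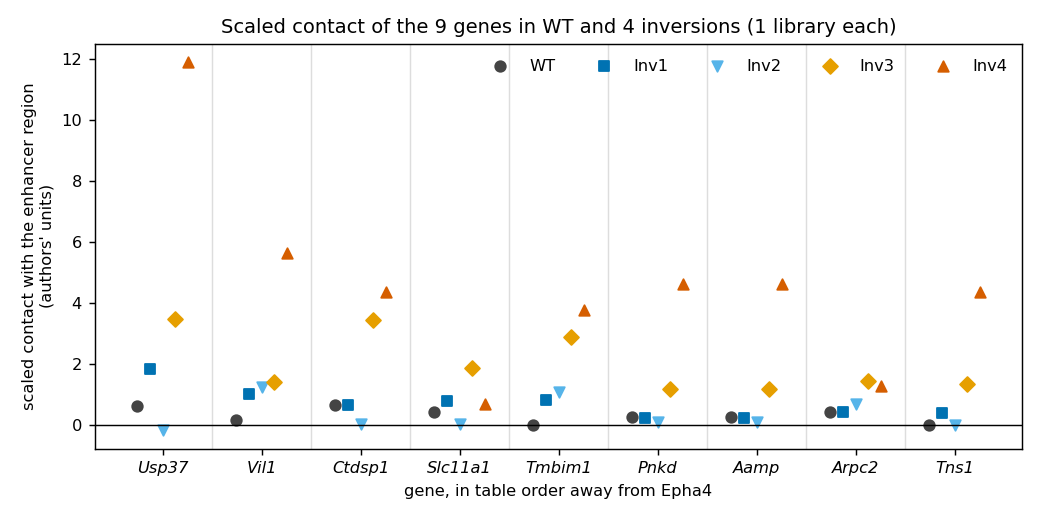
Scaled contact with the enhancer region (authors' units, y axis) of the 9 genes in table order away from Epha4 (x axis), with 1 point per library and no error bars because each condition is 1 library. Inv4 points lie from 0.706 at Slc11a1 to 11.9 at Usp37, and WT points lie at or below 0.671.

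Ratios to WT were taken as log2 of value plus 0.5 over WT plus 0.5, with negative values set to 0, and a gene was counted as raised or lowered past 2-fold on that scale. In Inv4, 7 of the 9 genes were above WT by more than 2-fold, against 52.4% of all 103 genes. In Inv3 all 9 were above, against 45.6% of all genes. In Inv1, 3 of the 9 were above, against 35.9%, and in Inv2, 2 of the 9, against 19.4%. Below WT by more than 2-fold were 2 of the 9 in Inv2, against 16.5% of all genes. None of the 9 was below in Inv1, Inv3 or Inv4, where 3.88%, 10.7% and 6.8% of all genes were. The shares in Inv1 and Inv2 were thus close to those of the whole table, whereas those in Inv3 and Inv4 were above it.

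For Inv1 to Inv4 in turn, the median log2 ratio of the 9 genes was 0.50, -0.37, 1.52 and 2.72, beside 0.62, 0.0044, 0.81 and 1.08 over all genes. Tmbim1 and Tns1, the 2 genes at 0 in WT, were then left out. Of the other 7 genes, 2, 1, 7 and 5 were over 2-fold above WT in Inv1 to Inv4. Their median was 0.028, -0.37, 1.36 and 2.72. Of all 103 genes, 11 were at 0 in WT, and no share over all genes was taken without them. These counts therefore have no background. In Inv4 the ratios were 3.46 for Usp37, 3.22 for Vil1, 2.06 for Ctdsp1, 2.72 for Pnkd and Aamp, 0.96 for Arpc2 and 0.39 for Slc11a1. Arpc2 thus missed 2-fold narrowly, and it passed with a pseudocount of 0.05 (1.52). In Inv3 the ratios were 1.82 for Usp37, 1.52 for Vil1, 1.75 for Ctdsp1, 1.36 for Slc11a1, 1.10 for Pnkd and Aamp and 1.08 for Arpc2. Those of Pnkd, Aamp and Arpc2 lay just past the threshold and fell short of it when ratios were centred on the genes beyond Tns1, at 0.80, 0.80 and 0.78.

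How the authors scaled the tables, and whether they did so one by one, is not given in the sources used here. Centred on the median gene of each table, 3 of the 9 genes were past 2-fold in Inv3, 0 in Inv1, 2 in Inv2 and 6 in Inv4, where 24, 21, 20 and 24 of all 103 genes were. Of the 9, Slc11a1 and Arpc2 changed sign in Inv4 under this centring, to -0.70 and -0.12. With a pseudocount of 5, which is above most values of these genes, 2 of the 9 were past 2-fold in Inv4 (Usp37 at 1.59 and Vil1 at 1.04) and 0 in Inv3, where 11 and 5 of all 103 genes were.

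**Figure D2:**
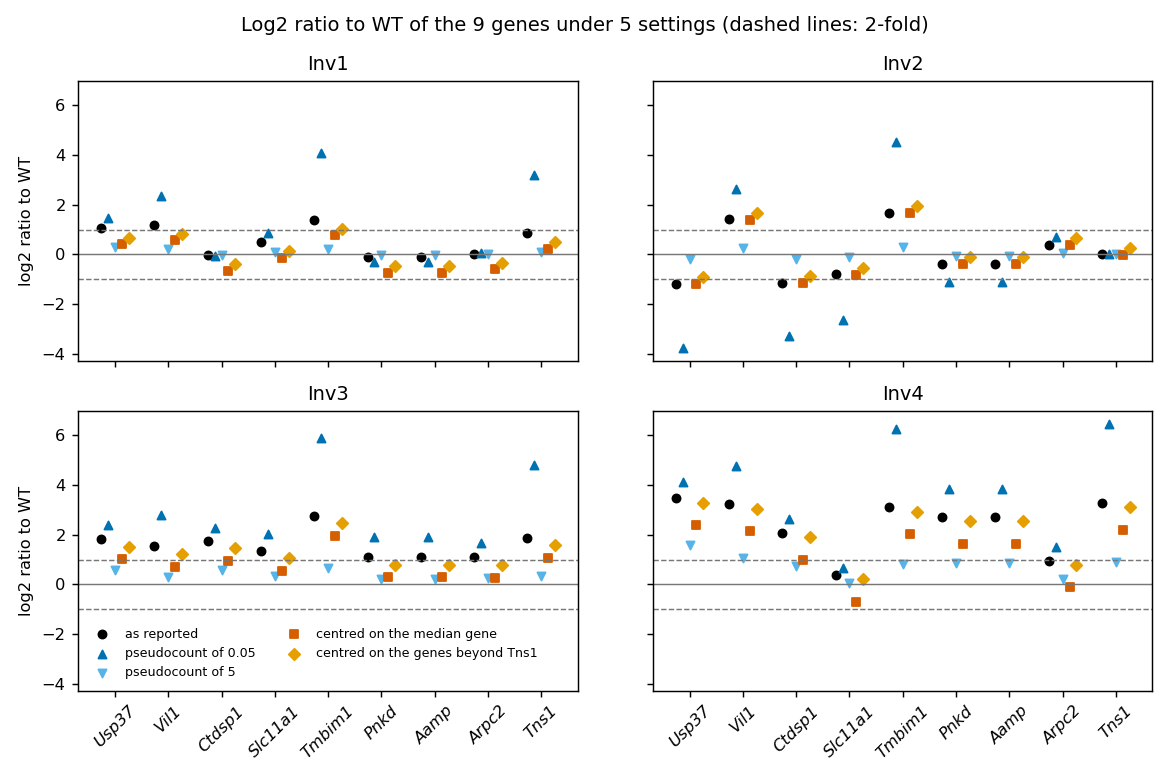
Log2 ratio to WT (y axis) of the 9 genes (x axis) in each inversion under 5 settings, 1 symbol per setting; dashed lines mark 2-fold. In Inv4 Usp37 and Vil1 lie above the upper line under all 5 settings, at 1.59 and 1.04 or more, while in Inv3 all 9 genes fall below it with a pseudocount of 5.

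If each table was scaled by a single factor, which is not known, a comparison within a table does not depend on that factor. The median of the 9 genes was 8.50 times that of the 23 genes beyond Tns1 in Inv4, 5.62 times in Inv3 and 4.67 times in Inv2, and 2.198 times in Inv1 against 1.49 times in WT. Such a ratio can still depend on any subtraction of signal. Of the 23 genes, 9, 6 and 4 lay below 0 in Inv2, Inv3 and Inv4, against 0 in WT and Inv1. The ratios of Inv2 to Inv4 are therefore not like for like with those of WT and Inv1, and the effect was not tested. The Inv2 ratio also rests on values near 0, with medians of 0.103 and 0.0221. In Inv4 the medians were 4.37 and 0.514, and 7 of the 9 genes lay above the highest gene beyond Tns1, at 1.79. In Inv3, 4 of the 9 lay above the highest of those genes (1.499), in Inv2 3, in WT 2 and in Inv1 1. No share of all genes above these limits was taken. These counts, that of Inv4 included, therefore have no background and cannot show a property particular to the 9. As a percent of the highest gene of the same table, which was Prkag3 at 33.9 in Inv4, Usp37 was at 35.1%, Vil1 at 16.6%, Ctdsp1 at 12.9%, Slc11a1 at 2.08%, Tmbim1 at 11.2%, Pnkd and Aamp at 13.6%, Arpc2 at 3.78% and Tns1 at 12.9%. Past the drop between Usp37 and Vil1, contact in Inv4 therefore did not decline steadily along the group.

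The genes next to the group give the values on either side of it in Inv4, though table rows carry no distance. Zfp142, Plcd4 and Rqcd1, the 3 genes on the side of Epha4, were at 13.7, 14.3 and 11.9. Mir6351, 6030407O03Rik and D530049I02Rik, the 3 genes beyond Tns1, were at 0.731, 1.04 and 0.272. Within the group Slc11a1, at 0.706, was lower than Mir6351 and 6030407O03Rik. Contact in Inv4 was thus 4.36 at Tns1 and 0.731 at the next gene of the table. In Inv3 the same step was from 1.34 to 0.805. Beyond Tns1, 6 of 23 genes were still over 2-fold above WT in Inv4 and 4 of 23 in Inv3, or 26.1% and 17.4%. All 7 genes that stand between the 9 in the table were over 2-fold above WT in Inv4, so that Slc11a1 and Arpc2 were the 2 of the 16 rows from Tns1 to Usp37 that did not pass. In Inv3, 4 of these 7 genes passed, although all of the 9 did. The rows past 2-fold were thus 14 of 16 in Inv4, 13 in Inv3, 5 in Inv1 and 4 in Inv2.

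The reach of raised contact was also read as the unbroken run of the 9 genes past 2-fold, counted from Usp37 outward and skipping the 7 genes between them. It was 3 genes in Inv4 (to Ctdsp1, where Slc11a1 broke the run), 9 in Inv3, 2 in Inv1 and 0 in Inv2. With those 7 genes counted too, a reading added after the data were seen, the run in Inv3 ended after 4 of the 9 genes, at Gm216 (log2 ratio 0.91, named after its value was seen), and the other 3 runs were unchanged. In Inv4 raised genes resumed beyond Slc11a1, and Tns1, the last of the 9, was among them. The size of the difference gave another order. With negative values set to 0, the SD of the difference to WT over the 23 genes beyond Tns1 was 0.337, 0.280, 0.494 and 0.519 for Inv1 to Inv4. Against it, 3, 2, 7 and 7 of the 9 genes exceeded 2 SD. Among all 103 genes, 44, 29, 46 and 52 did so. With negative values kept, the SD was 0.406, 0.623 and 0.616 in Inv2 to Inv4. Then 3, 2, 5 and 7 of the 9 genes exceeded 2 SD in Inv1 to Inv4, where 44, 25, 41 and 50 of all genes did. The run of 9 in Inv3 was 5 genes by 2 SD with negative values set to 0, and was not counted with them kept. It was 1 gene with a threshold of 3-fold, so its length depended on where the line was drawn. The run in Inv4 was 2 with median centring and with a pseudocount of 5, and 3 under the other alternatives tried.

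**Figure D3:**
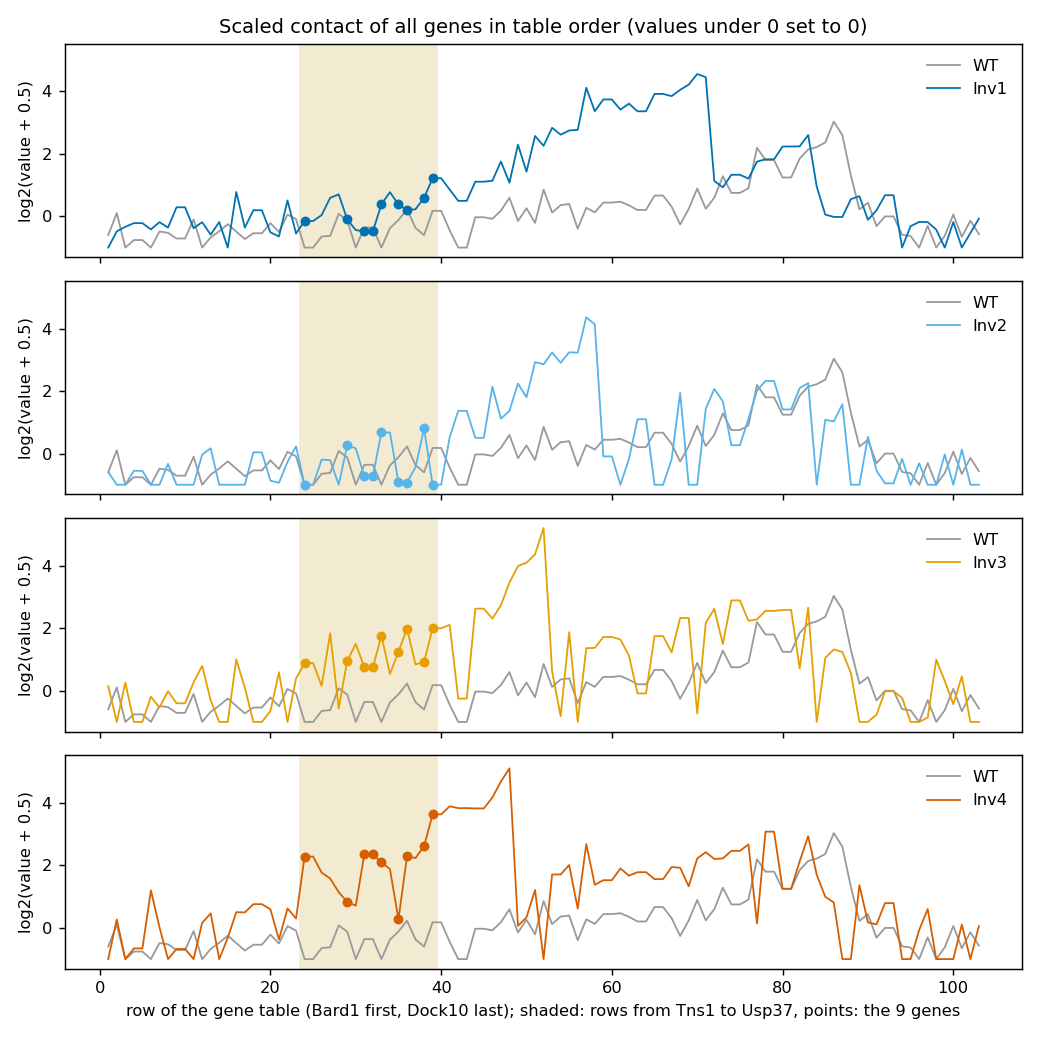
Scaled contact, as log2 of value plus 0.5 (y axis), of all 103 genes in table order (x axis) in Inv1 to Inv4 (coloured) and WT (grey), 1 library each; the shaded rows run from Tns1 to Usp37 and points mark the 9 genes. In Inv4 the coloured line lies above WT through all 16 shaded rows, by the least at Slc11a1 and Arpc2, where log2 ratios were 0.39 and 0.96.

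The inversions were then compared gene by gene. The maps of Inv2 to Inv4 had a share of WT subtracted, and their gene tables may share such a subtraction. Inv3 was above Inv1 and above Inv2 for all 9 genes, where 55 and 70 of all 103 genes were. Inv4 was above Inv2 for all 9, above Inv1 for 8 and above Inv3 for 7, where 73, 56 and 63 of all genes were. Inv1 was above Inv2 for 6 of the 9 (69 of all genes), the exceptions being Vil1, Tmbim1 and Arpc2. The order from highest to lowest was Inv4, Inv3, Inv1, WT, Inv2 for Usp37 and Tns1 (with WT and Inv2 both at 0 for Tns1) and Inv4, Inv3, Inv2, Inv1, WT for Vil1 and Tmbim1. The differences between Inv1 and WT of Ctdsp1 (-0.0278), Arpc2 (0.0179) and the pair of Pnkd and Aamp (-0.0627) are smaller than the SD of that difference among the genes beyond Tns1 (0.337).

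Inv2 stood apart in another way. Its table had 25 genes below 0, of which Usp37 was the 1 gene of this group, and Ctdsp1 and Slc11a1 lay at 0.0243 and 0.0269. Usp37 and Ctdsp1 were the 2 genes over 2-fold below WT, at log2 ratios of -1.18 and -1.16, while Vil1, which stands between them in the table, was at a log2 ratio of 1.40 and Tmbim1 at 1.10 units against 0 in WT. A multiple of WT had been subtracted from the Inv2 map. Of the 25 genes below 0, 7 lay within 1% of 0.993 times their WT value with the sign turned, none of them among the 9. In Inv3 and Inv4, 2 of 13 and 3 of 12 genes below 0 shared a multiple in this way, at 2.75 and 1.08. The lowest and highest multiple were the same in Inv3. Genes tied in all tables share a multiple in any case and were counted singly, so these counts cannot tell a subtraction from ties. How much of the low Inv2 values a subtraction accounts for was not tested.

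By a fixed rule, the genes outside the group with profiles over the 5 tables most like its median profile were Mir26b, Rufy4 and Cxcr2, at Euclidean distances of 0.322, 0.779 and 1.14 on the log2 scale. All 3 stand between members of the group in the table. Mir26b, a microRNA gene within Ctdsp1, was at 4.20 in Inv4 and 1.29 in Inv3, at 0.240 in Inv2 and 0.671 in Inv1, and at 0.273 in WT. Cxcr2, a chemokine receptor gene, was at 2.91 in Inv4 and 0.610 in Inv3, at 0.373 in Inv2 and 0.528 in Inv1, and at 0.138 in WT. Both were chosen for profiles near the group's, so a like order over the tables follows from the choice. Cxcr2 was past 2-fold in Inv4 but not in Inv3.

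The contact maps were examined for the same reach without gene names. The gene tables could not be reproduced from the maps: the single window that best matched the 5 tables together gave 7 of 79 distinct WT values, so no gene was placed in the maps. The part of the Epha4 domain that every inversion moves lay in mm9 at 75.62 to 75.90 Mb of chromosome 1, between the WT domain border and the shared right breakpoint. The stretch beyond the left breakpoint of Inv4 was read from 74.79 Mb back to 73.89 Mb, in 9 steps of 100 kb. It lies outside all 4 inversions, whose left ends were at 75.28, 75.13, 74.93 and 74.79 Mb. The maps of WT, Inv1, Inv1DelCTCF and Inv1 ESC held 3903615 to 5155261 read pairs. Those of Inv2 to Inv4 have 28.8% to 31.3% of listed bin pairs below 0, as a share of the WT map had been subtracted. Their depth is therefore unknown here and no interval is given. Values derived from them below are also not like for like with those of the maps without a subtraction. The effect was not tested.

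Of all contacts of the moved part, 1.38% went to the 900 kb stretch in WT (95% counting interval 1.33% to 1.42%), 3.65% in Inv1 (3.55% to 3.74%) and 3.56% in Inv2, against 6.93% in Inv3 and 21.2% in Inv4. From the breakpoint outward, the Inv4 share per 100 kb was 8.91%, 4.58%, 2.84%, 1.37%, 1.07%, 0.898%, 0.635%, 0.514% and 0.399%. In WT it was 0.208% in the nearest and 0.152% in the farthest step and did not fall below 0.120% between. As deposited, with WT signal subtracted, the Inv4 share was above that of WT along the whole 900 kb. It was 42.7 times WT at the near and 2.62 times at the far end. In Inv3 the fold ran from 10.3 to 1.20, in Inv1 from 4.35 to 1.26 and in Inv2 from 4.32 to 0.76. In the far step, 800 to 900 kb out, Inv1 exceeded WT by 0.0393 percentage points, with a 95% counting interval of the difference from 0.0080 to 0.0706.

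The inversions also bring the moved part nearer to the stretch, and contact falls with distance in any map. Contact was therefore divided by its mean at the same distance in the same map. In Inv4 this value was 1.55, 1.32 and 1.07 in the first 3 steps, 0.64 in the fourth and 0.39 in the last. Contact beyond 300 kb was thus above WT in share but below the mean of its own distance. The value at the first step compared with 0.491 to 1.54 (median 0.952) for segments of the same sizes and separation elsewhere in the Inv4 map. In WT the stretch was at 0.26 in the first step and 0.44 in the last. Inv1, Inv2 and Inv3 had 0.70, 0.50 and 0.74 in the first step, below 1 but above WT. On this measure Inv1 stayed above WT to step 8 (1.19 times WT), and Inv2 and Inv3 to step 6 (1.26 and 1.34 times). In the last step these 3 were at 0.39, 0.20 and 0.23, below WT, as was Inv4.

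**Figure D4:**
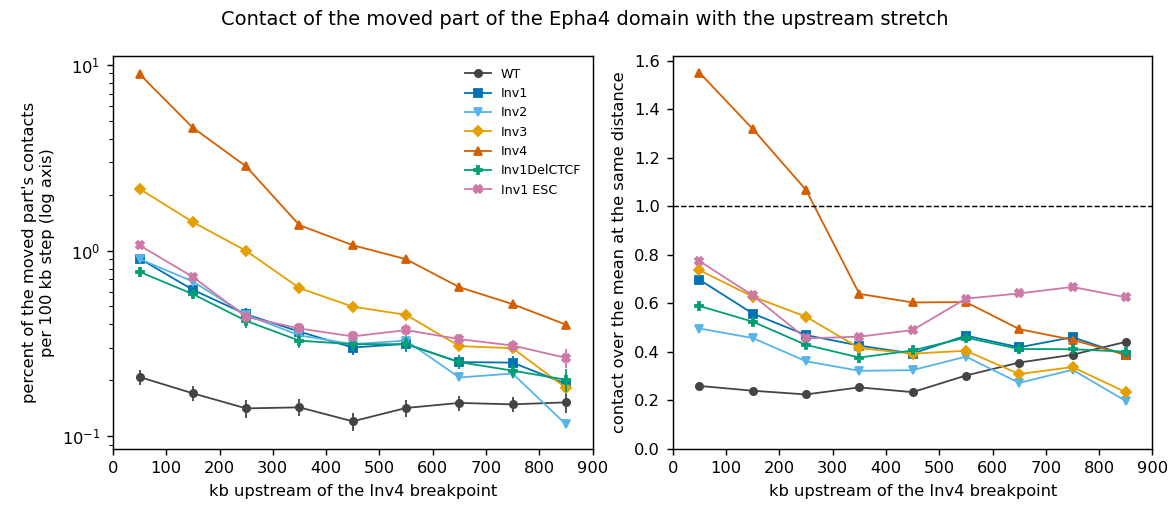
Contact of the moved part of the Epha4 domain with 9 steps of 100 kb upstream of the Inv4 breakpoint (x axis, kb) in 7 libraries: percent of its contacts on a log axis (left, with 95% counting intervals for the 4 libraries whose read pairs were recovered) and contact over the mean at the same distance (right, dashed line at 1). Inv4 is highest in share at every step, from 8.91% to 0.399%, and crosses 1 on the right after the third step. The maps of Inv2 to Inv4 had WT signal subtracted, and the others had not.

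Inv1DelCTCF and Inv1 ESC have no gene table, and the maps alone show how the same stretch met the moved part there. In Inv1DelCTCF the share was 3.40% (3.31% to 3.49%), 93.3% of that in Inv1, and the 95% counting interval of the difference lay below 0 for the whole stretch and the nearest 100 kb (0.768% against 0.906%) and held 0 in the other 8 steps. In Inv1 ESC it was 4.23% (4.14% to 4.32%), above Inv1, with the interval of the difference above 0 in steps 1, 2 and 5 to 9 and holding 0 in steps 3 and 4. In the farthest step the ESC share was 0.264% (0.234% to 0.295%), against 0.192% in Inv1. These intervals cover counting error only, since 1 library per condition leaves the spread between embryos or cultures unmeasured. The reading frame of Inv1 was used for Inv1DelCTCF, whose deletion may shift it by an unknown amount.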

How the data were processed

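Capture Hi-C was measured in 7 libraries, grouped by title, with 1 library per condition. Per the submitters' processing notes, Bowtie2 2.2.6 and Juicer were used with build mm9. The deposited maps hold a signal per pair of 10 kb bins, which the file names mark as Knight-Ruiz balanced. The deposited gene tables hold 1 scaled contact signal per gene; how the authors scaled it is not given in the sources used here. In Inv2 to Inv4, maps and tables as deposited also hold signal values below 0, the maps because a multiple of the WT map (0.423, 0.369 and 0.334) had been subtracted.

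Read pairs were recovered by fitting 1 factor per bin, after which 100% of low values lay within 0.1 of a whole number. Left ends of Inv2 to Inv4 came from where negative values left the WT multiple, and that of Inv1 from bin factors over 3 SD from WT, a limit set after the values were seen. Shares are summed signal over all contacts of the moved part, with 95% counting intervals. Log2 ratios of the tables used a pseudocount of 0.5. Genes named are the 9, 3 neighbours on either side, the highest gene of each table, Epha4 and the 3 genes nearest in profile. The genes and lists were chosen with earlier results of these data known. Alternatives changed the pseudocount (0.05 and 5), the centring, a minimum of 0.5 in WT or the inversion, the threshold of 1.5-fold or 3-fold, the far genes and the map measure. Upstream sequences came from the RefSeq table of GRCm38.p6. Steps were tested on simulated data with Python 3.11.15 and numpy 2.4.6.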

Additional observations from a re-analysis of the deposited data

Results flagged for a closer look

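Usp37 and Ctdsp1 were over 2-fold above WT in one inversion and over 2-fold below WT in another. The log2 ratio of Usp37 was 3.46 in Inv4 and -1.18 in Inv2, and that of Ctdsp1 was 2.06 in Inv4 and -1.16 in Inv2. Each value is from 1 library, and the difference between the inversions was not tested. Both Inv2 ratios fell short of 2-fold with a pseudocount of 5 and when centred on the genes beyond Tns1, and the Usp37 value behind its ratio was negative and set to 0.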

How the results depend on the processing

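Every count and median below is from 1 library per condition. No paired analysis was possible because each condition has 1 library. Of the alternative values for the counts, medians, runs, map folds and the match of tables to maps, 80 stayed within the limits set and 35 moved. A change of direction could be recorded only for map folds and for medians over 1 in size, and none of these changed direction. Counts and runs could not show one. Among the smaller medians, that of Inv1 changed sign from 0.50 to -0.13 with median centring. That of Inv2 went from -0.37 to 0.39 without low values. The number of the 9 genes above WT became 0, 0 and 0 in Inv1, Inv2 and Inv3 and 2 in Inv4 with a pseudocount of 5 (17, 7, 5 and 11 of all 103 genes), 0 in Inv1 and 3 in Inv3 when centred on the median gene (21 and 24 of all), and 1 in Inv1 when centred on the genes beyond Tns1 (26 of all). The number below WT in Inv2 became 5 with a pseudocount of 0.05, 0 with 5 and 0 when centred on the genes beyond Tns1 (36, 0 and 8 of all). The median log2 ratio became -0.13 in Inv1, 0.72 in Inv3 and 1.63 in Inv4 when centred on the median gene, -1.10 in Inv2 and 3.83 in Inv4 with a pseudocount of 0.05, 0.34 in Inv3 and 0.86 in Inv4 with 5, and 0.39 in Inv2 without low values. The run of raised genes became 0 in Inv1 with a 3-fold threshold, with median centring and with a pseudocount of 5, and in Inv3 it became 1 with 3-fold, 5 with 2 SD of the genes beyond Tns1, 1 with median centring, 0 with a pseudocount of 5 and, in a reading chosen after seeing the data, 4 with the genes between the 9 counted too. Members past 2 SD in Inv2 became 0 with far genes from the other end of the table (18 of all). Map folds over WT, as contact over the mean at the same distance, became 1.76, 1.32, 1.80 and 3.60 for Inv1 to Inv4, 1.62 for Inv1DelCTCF and 2.12 for Inv1 ESC, and 14.5 in Inv4 with the moved part narrowed by 20 kb at both ends. The WT map is from limb buds, so the inversion and the cell type cannot be told apart in the Inv1 ESC fold. The best window chosen on the WT table alone matched 12 of 79 values. Of 172 alternative ratios of single genes, 118 stayed, 38 fell short of 2-fold, 5 passed it and 11 moved by more than the SD of the genes beyond Tns1. The cause of these shifts was not tested. Gene tables carry no depth, and the subtraction leaves the depth of Inv2 to Inv4 unknown. Their map folds are also not like for like with those of the maps without a subtraction.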
